A study of Homo sapiens with 9 samples.

Results

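The BCL2 family genes described here are BCL2, BCL2L1, MCL1, BAX, BAK1, BCL2L11, PMAIP1, BID, BIK and BMF. They were taken by gene symbol from a table of gene-level read counts, and all 10 were found among its 42717 genes. The counts came from 9 RNA-seq libraries of 3 pancreatic ductal adenocarcinoma (PDAC) cell lines, with 3 libraries per line. S2-007, S2-020 and S2-028 are sublines of SUIT-2, a human PDAC line, and were cultured without treatment in DMEM with inactivated fetal bovine serum. S2-007 carries the serine protease inhibitor maspin in the nucleus and the cytoplasm (panMaspin), S2-028 carries it mostly in the cytoplasm (cytMaspin), and S2-020 has little maspin protein. Each maspin status is represented by 1 subline, so the status of maspin and any other difference between the sublines cannot be told apart. No source states that the libraries of a line came from separate cultures, so the p-values measure only the spread between these libraries, which may be technical.

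Proteins of the BCL2 family decide whether the outer membrane of the mitochondrion stays intact. BAX and BAK1 are the effectors that form pores in that membrane, BCL2, BCL2L1 (BCL-XL) and MCL1 are pro-survival proteins that hold them in check, and the BH3-only proteins BCL2L11 (BIM), PMAIP1 (NOXA), BID, BIK and BMF bind the pro-survival proteins or, in some cases, the effectors directly. Once pores form, cytochrome c leaves the mitochondrion and caspases are activated. In pancreatic cancer cells, BCL2L1 and MCL1 are widely studied as brakes on this process.

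A feature that all members share is the BH3 core, a short stretch that, in the BH3-only proteins and effectors, binds the groove of the pro-survival proteins. Its pattern was searched as a codon for leucine, codons for any 3 amino acids, a codon for glycine or alanine and a codon for aspartate. Each member held exactly 1 match in the coding part of its canonical transcript, whereas 24.8% of 19755 human coding sequences held at least 1. The stretches were read from GENCODE transcripts of GRCh38 and are shown because the members share this core, although the pattern alone does not define the family. The core of 18 bases is in capitals, and its coordinates are those of the 30 bases printed.
BCL2 (chr18:63318355-63318384, minus strand): ctgaccCTCCGCCAGGCCGGCGACgacttc
BCL2L1 (chr20:31721928-31721957, minus strand): caagcgCTGAGGGAGGCAGGCGACgagttt
MCL1 (chr1:150578871-150578900, minus strand): gagaccTTACGACGGGTTGGGGATggcgtg
BAX (chr19:48955781-48955810, plus strand): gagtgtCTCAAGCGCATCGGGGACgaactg
BAK1 (chr6:33575393-33575422, minus strand): cggcagCTCGCCATCATCGGGGACgacatc
BCL2L11 (chr2:111150097-111150126, plus strand): caagagTTGCGGCGTATTGGAGACgagttt
PMAIP1 (chr18:59902667-59902696, plus strand): actcaaCTCAGGAGATTTGGAGACaaactg
BID (chr22:17739421-17739450, minus strand): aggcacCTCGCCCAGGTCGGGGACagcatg
BIK (chr22:43127710-43127739, plus strand): ctgcggCTGGCCTGCATCGGGGACgagatg
BMF (chr15:40104201-40104230, minus strand): cgaaagCTTCAGTGCATTGCAGACcagttc
BMF was the only member with an alanine codon in place of the glycine codon. The cores lay within 1 coding segment in all 10 genes.

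Library totals ranged from 60328748 to 86253923 counts. SERPINB5, which encodes maspin, stood at 211.6 ± 9.1 CPM (SD, n = 3; CPM are counts scaled to library size, with TMM factors) in S2-007, 6.56 ± 0.428 in S2-020 and 27.7 ± 2.75 in S2-028. All 6 epithelial markers reached 1 CPM in every line, but their summed level was 4309.7 to 5428.3 CPM in S2-020, against 9543.0 to 10077.4 in S2-007 and 15162.7 to 17769.9 in S2-028. KRT19, a ductal keratin, was at 102.8 ± 12.9 CPM in S2-020 and at 2123.5 ± 40.7 in S2-007. The part of this epithelial difference in the values of S2-020 below was not tested. Among 4 leukocyte markers the summed level was 294.4 to 369.6 CPM in S2-007, where LYZ alone reached 1 CPM, 3.82 to 5.03 in S2-020 and 3.0 to 4.25 in S2-028. The pan-leukocyte marker PTPRC was at 0.186 to 0.301 CPM on average. Fibroblast markers summed to at most 5.56 CPM, endothelial markers to at most 9.84 and acinar and islet markers to at most 1.35.

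Differences between the lines were tested for each gene with edgeR's quasi-likelihood test. Genes past an adjusted p of 0.05 (Benjamini-Hochberg) that also changed at least 1.5-fold are called DEGs. All 10 members passed the filter on low counts in each comparison. In S2-028 against S2-007, the comparison of cytMaspin with panMaspin, 1 member was higher (BID) and 1 was lower (BIK), and 18.4% of all 26371 genes tested were DEGs (10.2% higher and 8.19% lower). In S2-020 against S2-007, 3 members were higher (BCL2, BAX and BCL2L11) and 1 was lower (BIK), with 21.6% of 26657 genes called (9.57% higher and 12.1% lower). In S2-028 against S2-020, 2 members were higher (BID and BIK) and 2 were lower (BCL2 and BCL2L11), with 22.2% of 26031 genes called (12.1% higher and 10.1% lower). The 3 comparisons share libraries and are not independent of each other. Fold changes of the members had a median of -0.11, -0.09 and -0.23 on the log2 scale in the order of comparisons just given, beside 0.0, -0.05 and 0.02 over all genes tested.

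The count at an adjusted p under 0.05 without a minimum fold was 6, 6 and 7 members in the same order, and the shares of all genes at that threshold were 33.9%, 40.2% and 40.4%. The libraries of the compared lines did not overlap for 6, 6 and 8 members, and this held for 43.3%, 48.5% and 48.9% of all genes. Thus BCL2L1 and BMF were the only members with no adjusted p under 0.05 in any of these comparisons.

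**Figure D1:**
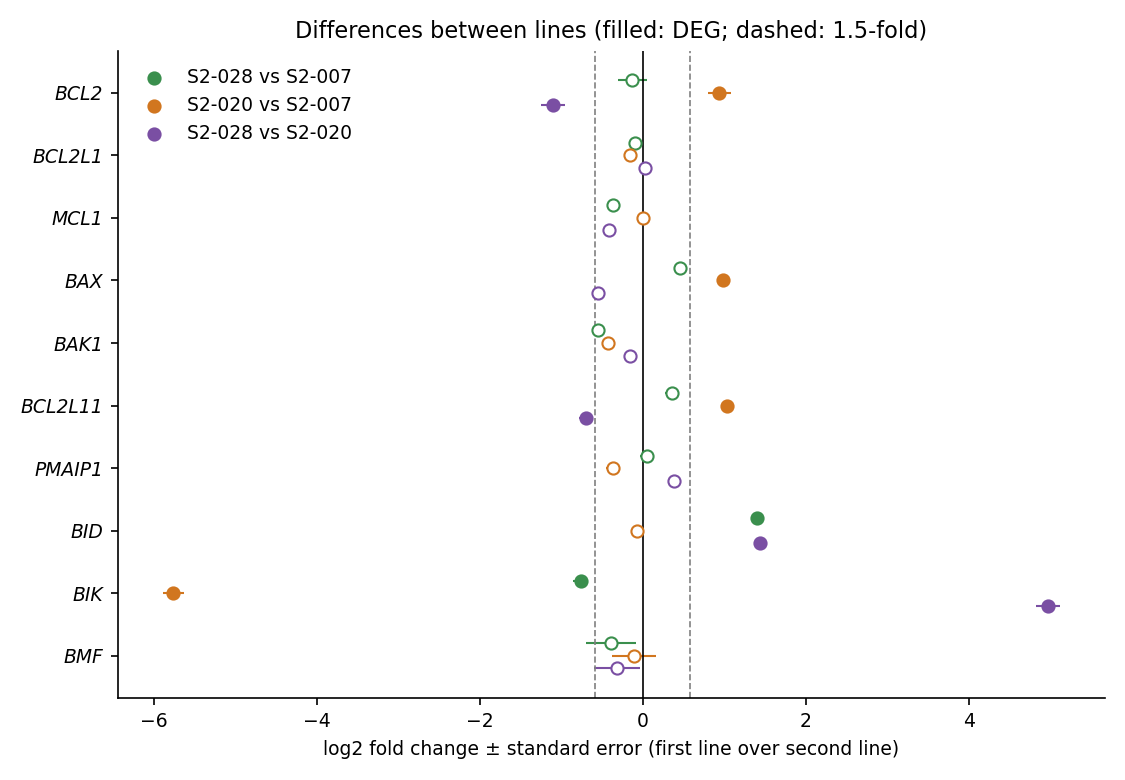
Log2 fold change of each member (points, with standard error) in 3 comparisons of cell lines. Filled points are DEGs and dashed lines mark a change of 1.5-fold. BIK in S2-020 stands farthest from 0, at -5.76 against S2-007, and the points of BCL2L1 lie between -0.15 and 0.03.

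Of the pro-survival genes, only BCL2 was called a DEG. BCL2, whose protein sits on the outer mitochondrial membrane and the endoplasmic reticulum, is encoded at chr18:63123346-63320090 on the minus strand. Its level was 3.82, 4.54 and 3.86 CPM in the S2-007 libraries, 8.45, 8.48 and 6.99 in S2-020, and 4.16, 3.67 and 3.31 in S2-028. The lowest S2-020 library lay above every library of the other lines, whose values overlapped. S2-020 exceeded S2-007 by 0.94 on the log2 scale (standard error 0.143, adjusted p = 1.88e-05), and the value for S2-028 against S2-020 was -1.10 (standard error 0.151, adjusted p = 5.72e-06). S2-028 and S2-007 differed by -0.13 on the log2 scale (adjusted p = 0.657).

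BCL2L1, which encodes the long form BCL-XL and, by splicing, the short form BCL-XS, had 514.5, 555.4 and 631.7 CPM in S2-007, 564.1, 513.6 and 485.6 in S2-020, and 498.8, 533.8 and 562.0 in S2-028. The 3 lines overlapped, and the log2 fold changes lay between -0.15 and 0.03 (adjusted p = 0.0677 for the largest of them, S2-020 against S2-007). Of its exon bases, 36.7% lie under ABALON, a gene on the opposite strand with 26.9 to 39.1 CPM on average, and whether the counting used the strand is not given in the sources used here. Gene-level counts do not separate the long from the short form.

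MCL1, a pro-survival protein with a short half-life, was at 280.4, 287.8 and 295.2 CPM in S2-007, 315.1, 294.3 and 276.9 in S2-020, and 223.9, 205.5 and 237.1 in S2-028. Every S2-028 library was below every library of the other lines. The difference was under 1.5-fold: -0.37 on the log2 scale against S2-007 (adjusted p = 5.38e-05) and -0.41 against S2-020 (adjusted p = 1.23e-05). Between S2-020 and S2-007 the MCL1 libraries overlapped, with a log2 fold change of 0.01.

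Of the effectors, BAX was called higher in S2-020 than in S2-007, and BAK1 was called in none of the comparisons. BAX, a soluble protein that moves to mitochondria when activated (chr19:48954875-48961798, plus strand), had 39.6, 43.6 and 46.5 CPM in S2-007, 83.2, 85.6 and 92.8 in S2-020, and 62.3, 54.8 and 61.0 in S2-028. No library of 1 line overlapped with another line, and the order was S2-020, S2-028, S2-007. BAX was a DEG in S2-020 against S2-007 (0.98 on the log2 scale, standard error 0.0641, adjusted p = 1.26e-10). It was 0.46 higher in S2-028 than in S2-007 (adjusted p = 3.54e-05) and -0.55 in S2-028 against S2-020 (adjusted p = 9.1e-07), and both differences were under 1.5-fold. Without replicate 1 of S2-020, or without replicate 1 of S2-028, the latter reached -0.59 and would be called.

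BAK1, the effector that is anchored in the mitochondrial membrane even at rest, showed 72.1, 69.4 and 76.0 CPM in S2-007, 56.0, 55.0 and 53.9 in S2-020, and 51.7, 43.9 and 52.7 in S2-028. S2-007 was the highest line with no overlap. The log2 fold change was -0.55 for S2-028 (adjusted p = 3.76e-06) and -0.43 for S2-020 (adjusted p = 2.66e-06) against S2-007, both under 1.5-fold. Leaving out replicate 1 of S2-028 moved the first to -0.59, leaving out replicate 3 of that line moved it to -0.60, and BAK1 would then be called. S2-028 and S2-020 differed by -0.15 (adjusted p = 0.11). In words of 31 bases, 17.4% of the BAK1 transcript is also found in the pseudogenes BAK1P1 and BAK1P2. Reads from those stretches may be ambiguous, and how far this affects the BAK1 counts was not measured.

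**Figure D2:**
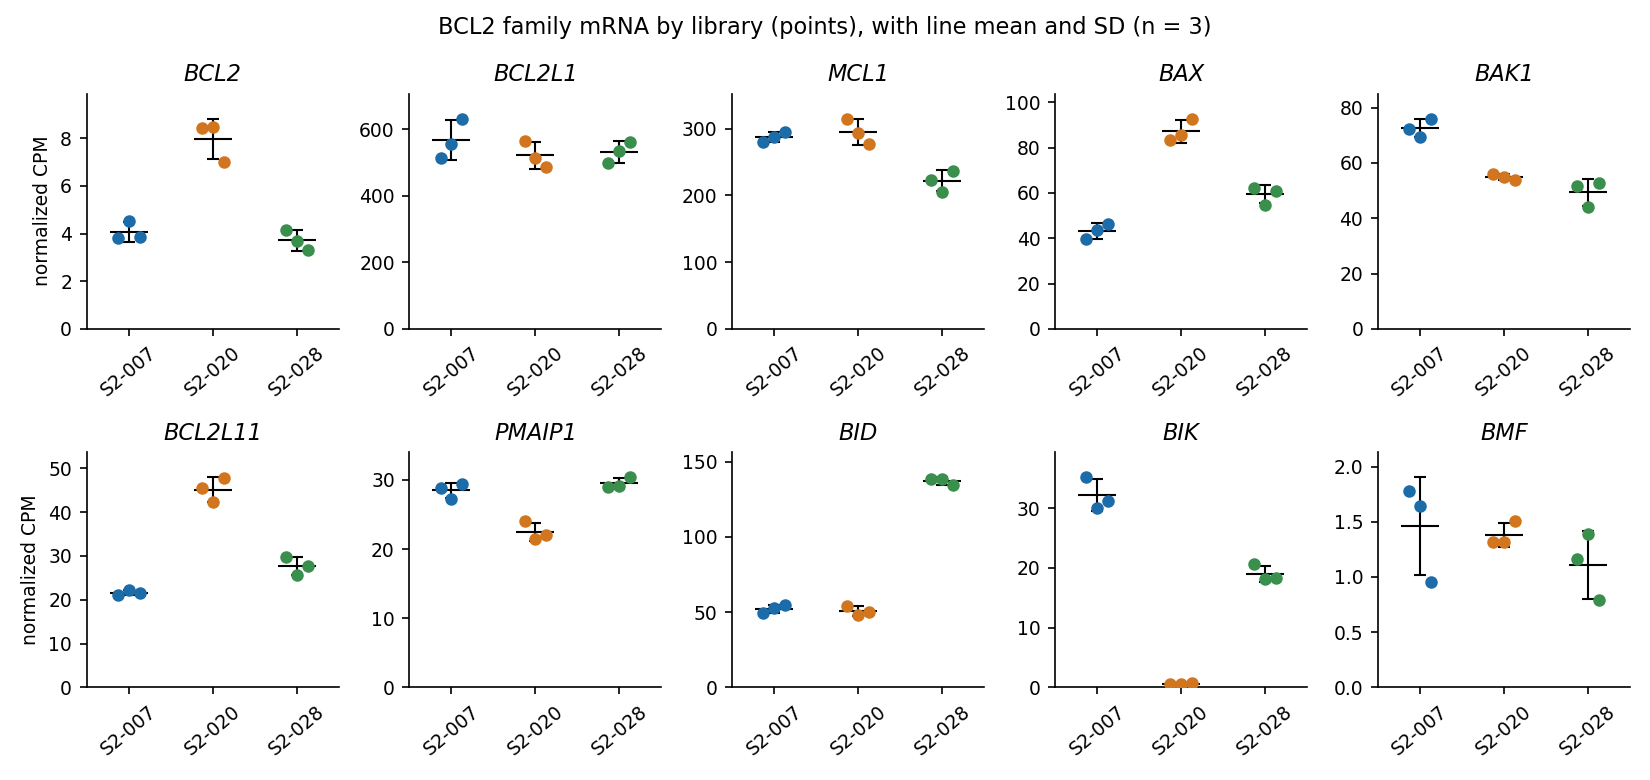
Normalized CPM of each member in every library (points), with the mean and SD of each line (n = 3), on linear axes that start at 0. BIK lies below 1 CPM in the S2-020 libraries, BID is highest in S2-028, and BCL2, BAX and BCL2L11 are highest in S2-020.

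The widest differences were in BIK, a BH3-only protein of the endoplasmic reticulum membrane (chr22:43110750-43129712, plus strand). BIK had 35.2, 30.1 and 31.2 CPM in S2-007, 20.6, 18.1 and 18.3 in S2-028, and 0.571, 0.589 and 0.655 in S2-020. The S2-020 values rest on 41, 49 and 47 counts, against 2240 to 2631 in S2-007, and are all above the floor of 3 counts. The 3 lines were fully separated, with S2-007 highest and S2-020 lowest. BIK was 54.3-fold lower in S2-020 than in S2-007 (log2 fold change -5.76, standard error 0.128, adjusted p = 7.25e-18) and 31.4-fold higher in S2-028 than in S2-020 (4.97, standard error 0.149, adjusted p = 1.46e-15). S2-028 stood below S2-007 (log2 value -0.76, standard error 0.0922, adjusted p = 9.34e-07), and this call was lost when the test asked for more than a 1.5-fold change (glmTreat, adjusted p = 0.0863). Neither another gene over its exons nor a shared word of 31 bases was found for BIK.

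BID, which caspase-8 cleaves to carry the signal of death receptors to mitochondria (chr22:17734138-17774665, minus strand), was at 49.4, 52.7 and 54.4 CPM in S2-007, 54.1, 47.9 and 49.8 in S2-020, and 138.7, 138.7 and 134.4 in S2-028. S2-028 stood apart from the other lines, which overlapped with each other. It exceeded S2-007 by 1.40 (standard error 0.0612, adjusted p = 9.26e-14) and S2-020 by 1.44 (standard error 0.0602, adjusted p = 2.31e-13) on the log2 scale. The S2-020 and S2-007 lines differed by -0.07 (adjusted p = 0.413).

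BCL2L11 encodes BIM, a BH3-only protein that binds all the pro-survival members (chr2:111120914-111168445, plus strand). Its level was 21.1, 22.3 and 21.5 CPM in S2-007, 45.4, 42.2 and 47.9 in S2-020, and 29.7, 25.6 and 27.7 in S2-028, with no overlap between lines and the same order of lines as BAX. On the log2 scale, S2-020 exceeded S2-007 by 1.03 (standard error 0.0715, adjusted p = 3.14e-10) and S2-028 exceeded it by 0.36 (adjusted p = 0.00228, under 1.5-fold). For S2-028 against S2-020 the value was -0.70 (standard error 0.0781, adjusted p = 3.73e-07), and this call was lost under glmTreat (adjusted p = 0.132). Of the exon bases of BCL2L11, 14.3% lie under MIR4435-2HG on the opposite strand, which had 44.2 to 50.5 CPM on average and was not called in any of the 3 comparisons.

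PMAIP1 encodes NOXA, which binds MCL1 with preference, and varied little. It had 28.8, 27.2 and 29.4 CPM in S2-007, 24.0, 21.5 and 22.0 in S2-020, and 29.0, 29.1 and 30.4 in S2-028. S2-020 was lower than both other lines without overlap, but by less than 1.5-fold (-0.37 against S2-007, adjusted p = 0.000473, and 0.39 for S2-028 against S2-020, adjusted p = 0.000444). BMF, a BH3-only protein that binds dynein light chains, was measured with 48 to 133 counts per library, or 0.787 to 1.78 CPM. Its lines overlapped, its standard errors were 0.27 to 0.31, and no difference was detectable at this depth (adjusted p = 0.402 to 0.805).

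Levels of different genes were compared only per kilobase of canonical transcript. The alignment did not split reads over introns, and how far this affects levels between genes was not measured. BCL2L1 was the most abundant member in all lines, with 220.4 ± 23.1 CPM per kb (SD, n = 3) in S2-007, 202.4 ± 15.5 in S2-020 and 206.5 ± 12.3 in S2-028. MCL1 followed with 72.9 ± 1.87 in S2-007, whereas BAX came next in S2-020 (109.7 ± 6.23) and in S2-028 (74.7 ± 5.06). The order below BCL2L1 depends on the length used. The longest coding length is 1050 bases for MCL1 and 654 for BAX, against 3950 and 795 for the canonical transcripts. Per kb of coding length, MCL1 would stand above BAX in all lines and above BID in S2-028. BIK was in place 4 in S2-007 (33.8 ± 2.79), place 9 in S2-020 (0.636 ± 0.0468) and place 6 in S2-028 (20.0 ± 1.47). BID was in place 6 in S2-007 (24.0 ± 1.17) and place 3 in S2-028 (63.0 ± 1.15). By canonical length BMF was the lowest member in all lines, at 0.237 to 0.31 CPM per kb. Per kb of coding length, BIK would be the lowest in S2-020. In the order by canonical length, neighbours whose libraries overlapped were BIK and BAK1 in S2-007, BAK1 and BID in S2-020, and BAK1 and BIK in S2-028. All other neighbours in that order were separated.

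Within the roles, BCL2L1 made up 74.9% ± 1.47 of the summed pro-survival level per kb in S2-007, 72.7% ± 0.275 in S2-020 and 78.4% ± 1.3 in S2-028. BAX made up 61.9% ± 1.67 of the effector level in S2-007, 81.2% ± 1.14 in S2-020 and 76.7% ± 0.683 in S2-028. This share was lowest in S2-007 whichever length was used, but with the longest coding length it was 36.6% in S2-007, so which effector is the more abundant in S2-007 depends on the length. Among the BH3-only members, BIK held 43.7% ± 2.5 of the summed level in S2-007, 1.42% ± 0.137 in S2-020 and 19.2% ± 1.01 in S2-028. BID held 51.8% ± 0.789 of it in S2-020 and 60.5% ± 1.0 in S2-028, and came second to BIK in S2-007. By canonical length, the BH3-only sum was thus led by BIK in S2-007 and by BID in the other lines. With the longest coding length, BIK (28.3% ± 1.93) stood below BID (30.5% ± 1.77) in S2-007. PMAIP1, whose longest coding length is 408 bases, would stand between them there.

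**Figure D3:**
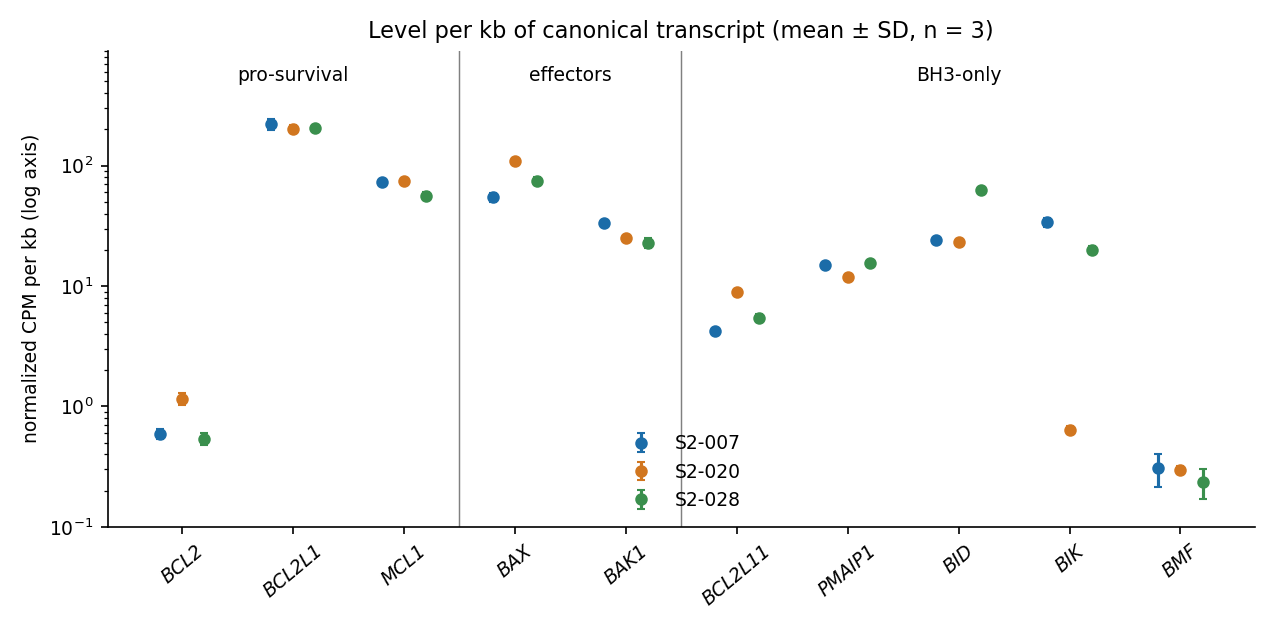
Normalized CPM per kb of canonical transcript (mean ± SD, n = 3, log axis) for the members, ordered by role. BCL2L1 lies above 200 CPM per kb in all lines, and BIK spans 33.8 in S2-007 to 0.636 in S2-020.

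The genes next to each called member on its chromosome were compared with it. The 50 tested genes nearest to BID had a median log2 fold change of 0.56 in S2-028 against S2-007, and 19 of them were higher and 4 lower by the same call, where 10.2% and 8.19% of all genes were called. In S2-028 against S2-020 the median of the 50 genes was 0.67, with 20 higher and 2 lower (12.1% and 10.1% of all genes). The nearest of them was BCL2L13, itself a gene of the BCL2 family 74.5 kb from BID, at 0.74 and 0.99. BID was above 42 of its 50 neighbours in the first comparison and above 46 in the second. The part of this regional difference in the value of BID was not tested.

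BIK lies on the same chromosome as BID. In S2-028 against S2-007 the median of its 50 nearest genes was -0.06, and 27 of them had the sign of BIK. In the comparisons with S2-020, most of its neighbours had the sign of its difference but a smaller size. In S2-020 against S2-007 the median of its 50 nearest genes was -0.31, where that of all genes was -0.05. Of the 50, 39 had the sign of BIK, 8 were called lower and 2 higher (12.1% and 9.57% of all genes), and all 50 were above BIK. In S2-028 against S2-020 the median was 0.19, and 35 of the 50 had the sign of BIK. There 9 were called higher and 3 lower (12.1% and 10.1% of all genes), and all 50 were below BIK. MCAT, the gene nearest to BIK at 17.6 kb, showed -0.40 in S2-020 against S2-007 and 0.37 in S2-028 against S2-020. TSPO, TTLL1 and TTLL12, at 37.2, 55.8 and 56.6 kb, showed -0.37, 1.03 and -0.74 in S2-020 against S2-007. In S2-028 against S2-020 they showed -0.34, -0.90 and 0.11. TTLL1 was a DEG opposite in sign to BIK in both comparisons. SCUBE1, farther off at 150.1 kb, had the largest change of the 50 in S2-020 against S2-007 (-3.83). It showed 1.16 in S2-028 against S2-020. In all, 10 of the 50 were called in S2-020 against S2-007 and 12 in S2-028 against S2-020. Over all genes tested, the shares called were 21.6% and 22.2%. Whether the neighbours bear on the value of BIK was not tested. For BCL2 the medians were -0.10 in S2-020 against S2-007 and 0.10 in S2-028 against S2-020, opposite in sign to BCL2 in both. SERPINB5 lies 269.3 kb from BCL2 and was lower in S2-020 than in S2-007 (log2 fold change -5.04, adjusted p = 1.02e-20), while BCL2 was higher there. Around BCL2L11 the median was -0.07 in S2-020 against S2-007, and around BAX it was 0.27, with FTL, 7.76 kb from BAX, at 1.62.

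BAX and BCL2L11 had the same order of lines (S2-020, S2-028, S2-007), so the RefSeq promoter windows of GRCh38.p14, from 250 bases before to 50 after the start, were searched on both strands for the SP1 box GGGCGG, the CCAAT box, the FOXO core GTAAACA, the TATA box TATAAA and E2F words (TTTCGCGC, TTTGGCGC and TTTCCCGC). Entries were matched by symbol for 8 members, all but BIK and MCL1. The BAX window held 2 SP1 boxes, 2 CCAAT boxes and 38 CpG, and the BCL2L11 window held 3 SP1 boxes, 1 CCAAT box, 1 FOXO core and 39 CpG. Of all 35116 windows, 45.0% held an SP1 box, 34.6% a CCAAT box, 3.4% a FOXO core, 11.5% a TATA box and 2.7% an E2F word, and the median was 14 CpG. BCL2L11 was the only member with a FOXO core in a window. The other matches were not particular to BAX and BCL2L11. SP1 boxes were also in windows of BAK1, BCL2L1, BID, BMF and PMAIP1, and CCAAT boxes in windows of BAK1 and BMF. BAK1, which was highest in S2-007, held 2 of each, as BAX did, but 7 CpG. PMAIP1 held 4 SP1 boxes and 42 CpG. A p53 half-site (RRRCWWGYYY), also searched, was in 6.6% of all windows and, among members, only in that of BAK1. The 250 bases before the start are printed for both, with SP1, CCAAT and FOXO matches of either strand in capitals.
BAX (chr19:48954625-48954874, plus strand): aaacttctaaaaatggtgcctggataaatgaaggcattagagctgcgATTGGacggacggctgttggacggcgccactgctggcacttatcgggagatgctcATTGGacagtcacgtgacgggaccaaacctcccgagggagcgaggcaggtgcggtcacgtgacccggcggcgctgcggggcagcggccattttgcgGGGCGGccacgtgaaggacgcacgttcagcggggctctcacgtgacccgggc
BCL2L11 (chr2:111120664-111120913, plus strand): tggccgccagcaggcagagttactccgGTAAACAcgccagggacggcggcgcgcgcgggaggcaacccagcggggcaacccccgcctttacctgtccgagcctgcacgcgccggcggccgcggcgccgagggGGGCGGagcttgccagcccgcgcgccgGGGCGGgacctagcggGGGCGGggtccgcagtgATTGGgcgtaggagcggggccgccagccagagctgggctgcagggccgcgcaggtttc
Among 19 regulators of the members, DDIT3 (CHOP), a stress transcription factor, had the order of lines S2-020, S2-028, S2-007, with 12.1 ± 0.32 CPM in S2-007, 36.1 ± 3.33 in S2-020 and 22.9 ± 3.25 in S2-028. DDIT3 was a DEG in each comparison (log2 fold change 1.54, 0.92 and -0.65 for S2-020 against S2-007, S2-028 against S2-007 and S2-028 against S2-020), and the last call was lost under glmTreat (adjusted p = 0.446) and without replicate 3 of S2-028 (-0.57). This order was not particular to DDIT3. ATF4, MYC and HUWE1, named here after their values were seen, had it with no overlap between lines, though none of them was a DEG, and FBXW7, USP9X and MARCHF5 had it by their means with overlapping libraries. Of the FOXO genes among these regulators, FOXO3 was highest in S2-028 (92.3 ± 3.91 CPM, against 69.8 ± 3.95 in S2-020 and 49.3 ± 4.04 in S2-007). FOXO1, also named after its values were seen, was lowest there (17.4 ± 0.658 CPM, against 25.4 ± 1.79 in S2-020 and 30.5 ± 1.14 in S2-007) and was a DEG in S2-028 against S2-007 (log2 fold change -0.81, adjusted p = 9.91e-08). Their part in the level of BCL2L11 was not tested. A motif match is a description of the sequence and not of binding.

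DYNLL2, the dynein light chain to which BMF is tethered, was highest in S2-028, with 67.7 ± 1.83 CPM in S2-007, 69.2 ± 3.37 in S2-020 and 159.8 ± 1.71 in S2-028 (log2 fold change 1.24, adjusted p = 4.16e-13, in S2-028 against S2-007). In the whole list of regulators, 3 of 19 were higher and 1 lower in S2-028 against S2-007, 1 higher and 0 lower in S2-020 against S2-007, and 1 higher and 1 lower in S2-028 against S2-020. The last count, 2 in all, became 1 under glmTreat or without replicate 3 of S2-028. Over all genes tested, 18.4%, 21.6% and 22.2% were called in these comparisons, in the same order.

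The other 14 genes of the BCL2 family were examined as the wider family, and 12 passed the filter on low counts. BCL2A1 and BCL2L10, both pro-survival, did not, with 0 to 12 counts per library. In S2-028 against S2-007, 4 of the 12 were higher and 2 lower. In S2-020 against S2-007, 3 were higher and 4 lower, and in S2-028 against S2-020, 3 of 11 were higher and 1 lower. Over all genes tested, 18.4%, 21.6% and 22.2% were called in these comparisons, in the same order. BBC3, which encodes the BH3-only protein PUMA, was at 1.31, 1.30 and 1.30 CPM in S2-007, 4.97, 5.24 and 6.94 in S2-020, and 3.61, 3.23 and 3.12 in S2-028. The lines did not overlap and had the order seen for BAX and BCL2L11. BBC3 was higher than in S2-007 by 2.10 in S2-020 (adjusted p = 1.69e-08) and by 1.35 in S2-028 (adjusted p = 2.93e-05) on the log2 scale. The difference between S2-028 and S2-020, -0.78, was lost under glmTreat (adjusted p = 0.239).

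BCL2L14 and BCL2L15, less studied genes of the family, were called lower in both other lines than in S2-007. BCL2L14 had 168 to 230 counts in the S2-007 libraries, 4 to 15 in S2-028 and 0 to 9 in S2-020, and its log2 fold change was -4.04 for S2-028 and -5.78 for S2-020 against S2-007, the latter becoming -7.44 without replicate 2 of S2-020. BCL2L15 was at 18.4 ± 3.42 CPM in S2-007, 3.92 ± 0.58 in S2-020 and 3.48 ± 0.652 in S2-028 (log2 fold change -2.26 and -2.40 against S2-007). BECN1, the autophagy protein with a BH3 domain, was lower in S2-020, by -1.25 on the log2 scale against S2-007 (adjusted p = 3.24e-12), with 37.7% of its exon bases under CNTD1 on the opposite strand. BNIP3L, a mitophagy receptor, was higher than in S2-007 by 1.00 in S2-028 and 0.95 in S2-020, and BCL2L12 by 0.71 and 0.79, of which 0.71 was lost under glmTreat (adjusted p = 0.176).

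BCL2L2, which encodes the pro-survival protein BCL-w, was at 16.7 ± 0.62 CPM in S2-020, 25.2 ± 2.76 in S2-007 and 25.2 ± 2.18 in S2-028. Its call in S2-020 against S2-007 (-0.63) fell short of 1.5-fold without replicate 1 (-0.57) or replicate 2 (-0.56) of S2-007, and its call in S2-028 against S2-020 (0.60) without replicate 2 (0.57) or 3 (0.58) of S2-020 or replicate 1 of S2-028 (0.54). Both were lost under glmTreat (adjusted p = 0.595 and 0.773), and 16.7% of its exon bases lie under the read-through gene BCL2L2-PABPN1 on the same strand. That gene stood at 66.4 ± 0.564 CPM in S2-007, 79.4 ± 1.06 in S2-020 and 74.7 ± 1.51 in S2-028, above BCL2L2 in each line. How reads on both genes were counted is not given in the sources used here. BOK, an effector-like protein, had log2 fold changes of -0.03 to -0.01, BAD of -0.25 to 0.13, HRK of 0.23 to 0.61 and BNIP3 of 0.01 to 0.55, and none of these was a DEG.

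**Figure D4:**
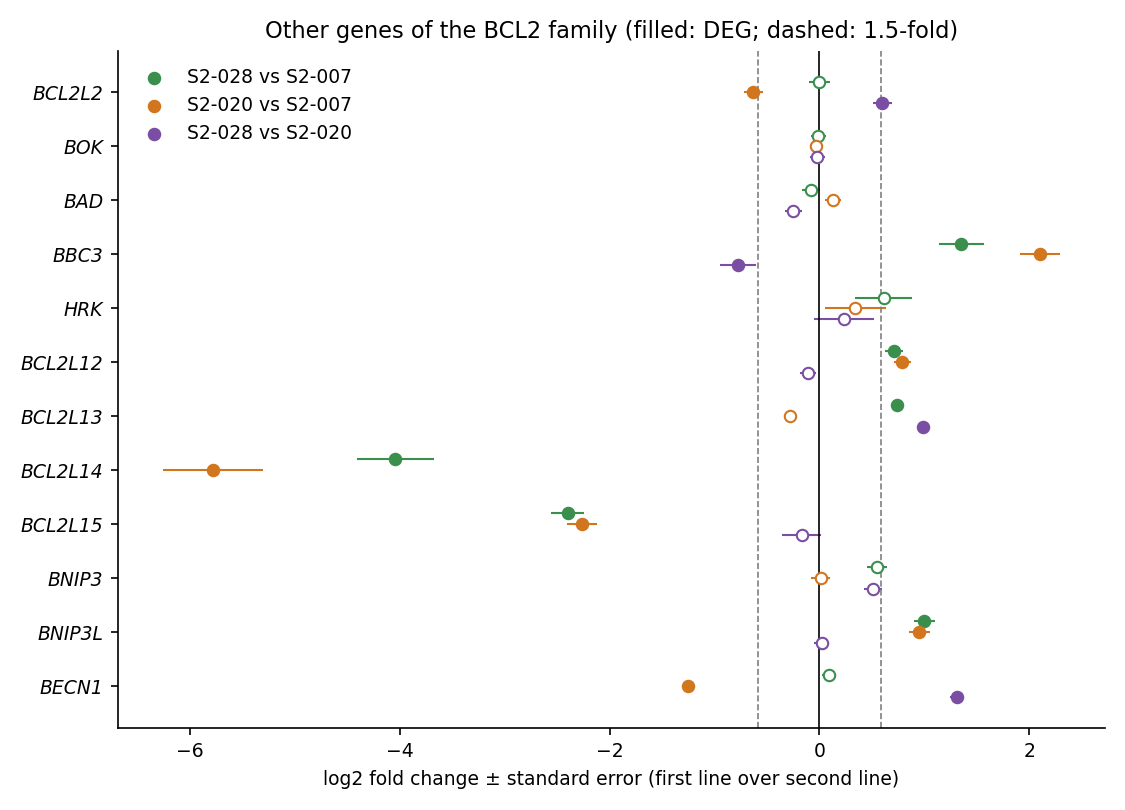
Log2 fold change (with standard error) of the other BCL2 family genes that were tested. Filled points are DEGs and dashed lines mark a change of 1.5-fold. BBC3 lies at 2.10 in S2-020 and 1.35 in S2-028 against S2-007, and BCL2L14 lies at -5.78 and -4.04.

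Partners of the members were counted from lists of the pathway. The counts of this and the following lists stand beside the shares called over all genes tested. These were 18.4% in S2-028 against S2-007, 21.6% in S2-020 against S2-007 and 22.2% in S2-028 against S2-020. Of 13 genes of the apoptosome and caspases, 1 was higher and 1 lower in S2-028 against S2-007, 0 and 2 in S2-020 against S2-007, and 1 and 0 in S2-028 against S2-020. Without replicate 1 of S2-007 the calls in S2-020 against S2-007 became 1, and without replicate 3 of S2-028 those in S2-028 against S2-020 became 2. CASP8, the caspase that cleaves BID, was at 62.9 ± 6.41 CPM in S2-007, 37.0 ± 2.65 in S2-020 and 52.6 ± 2.02 in S2-028, and was a DEG in S2-020 against S2-007 (-0.80, adjusted p = 3.01e-08). CASP6 was higher in S2-028 (0.71 against S2-007 and 1.05 against S2-020), and its call against S2-007 was lost under glmTreat (adjusted p = 0.252).

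Of 10 inhibitor of apoptosis (IAP) genes and their antagonists, 1 was higher and 1 lower in each comparison with S2-007, and 2 were higher and 2 lower in S2-028 against S2-020. The 2 calls in S2-028 against S2-007 became 1 under glmTreat and without replicate 1 of S2-007, replicate 1 of S2-028 or replicate 3 of S2-028, and the 2 calls in S2-020 against S2-007 became 4 without replicate 1 of S2-007. BIRC2 (cIAP1) was lower in S2-028 than in S2-020 (-1.01, adjusted p = 1.34e-11), whereas XIAP was higher (0.76, adjusted p = 6.11e-10). HTRA2, a mitochondrial protease that antagonizes IAPs, was lower in S2-020 than in S2-007 (-1.15, adjusted p = 1.95e-09).

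Of 12 death receptor and adaptor genes, 0 were higher and 2 lower in S2-028 against S2-007, 0 and 3 in S2-020 against S2-007, and 3 and 2 in S2-028 against S2-020. The 2 calls in S2-028 against S2-007 became 1 without replicate 3 of S2-028. In S2-020, FAS (-0.89, adjusted p = 1.43e-08) and CFLAR, the inhibitor of caspase-8 (-1.06, adjusted p = 4.06e-12), were lower than in S2-007, and TNFRSF1A was lower in S2-028 than in S2-007 (-0.67), a call lost under glmTreat (adjusted p = 0.225).

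Of 8 VDAC and mitochondrial partner genes, 0 were higher and 1 lower in S2-028 against S2-007, 2 and 0 in S2-020 against S2-007, and 0 and 2 in S2-028 against S2-020. VDAC1, the channel of the outer mitochondrial membrane, was at 537.2 ± 35.0 CPM in S2-007, 785.6 ± 34.5 in S2-020 and 312.7 ± 18.4 in S2-028 (-0.78, adjusted p = 1.31e-09, in S2-028 against S2-007). TIMM50 was higher in S2-020 than in S2-007 (0.74), and so was VDAC3 (0.59), which lay at the threshold. VDAC3 was called under 10 of 14 alternatives, and its call was lost under glmTreat (adjusted p = 0.846), with at least 10 counts in every library (0.57), and without replicate 1 of S2-007 (0.56) or replicate 2 of S2-020 (0.57), each of which left 1 call in the list.

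The genes whose pattern over the 3 lines was most like that of a member were named for the 3 members with the widest range, by the distance between line means of log2 CPM centred on their own average, among 14043 genes. They were ITGB6, HLA-DPA1 and DTX4 for BIK (distance 0.117, 0.136 and 0.289), RUNX1, CHRNB1 and CCDC152 for BID (0.0365, 0.0465 and 0.0475), and C1orf52, GPR161 and SLC15A3 for BCL2 (0.0213, 0.0299 and 0.0333). BIK stood at 2.14, -3.53 and 1.38 on this centred log2 scale in S2-007, in S2-020 and in S2-028, and ITGB6, the epithelial integrin subunit nearest to it, at 2.21, -3.62 and 1.40. With 3 lines, many genes can share a pattern.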

How the data were processed

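Poly(A)-selected, strand-specific RNA-seq libraries of S2-007, S2-020 and S2-028 (3 each) were sequenced on an Illumina NovaSeq. Per the submitters' processing notes and the methods, reads were trimmed with Trimmomatic 0.39 and aligned to GRCh38.p14 with BWA 0.7.17, which does not split reads over introns. The authors deposited whole-number counts of reads per gene without normalization, and how reads on several genes or strands were counted is not given in the sources used here. A further 18 columns of normalized values were not used, and 2 rows that name no gene were left out. Of counts from 1 to 10, 78.7% were even, so mates of a pair may have been counted singly, and counting precision is then lower than the counts alone imply. PCR copies were not marked, so the floor of 3 counts covers counting error only.

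Libraries were grouped by the cell line in their titles. Chi-square statistics per gene were 8.87 to 26.9 between libraries of 1 line and 271 to 415 between lines, so none was treated as a repeat. Counts were analysed with edgeR 4.0.16 in R 4.3.3 (filterByExpr, TMM, quasi-likelihood F-test), with the 6 libraries compared in each fit. The filter asked for about 10 counts, scaled to library size, in at least 3 libraries, and for 15 in total. The study's methods name a likelihood ratio test, which was an alternative here, as were DESeq2 1.42.0, RLE size factors, glmTreat, other filters, 1 fit over 9 libraries, a replicate block and leaving out each library. Standard errors were computed from the fold change and the F statistic. Printed CPM use TMM factors from 9 libraries, so their ratios can differ slightly from fold changes. On simulated counts, 83, 89 and 93 of 100 genes changed by 2-fold, and 100 of 100 changed by 4-fold, were recovered in S2-028 against S2-007, S2-020 against S2-007 and S2-028 against S2-020 (25842, 26163 and 25508 genes). In the same order, 7, 2 and 16 unchanged genes were called. The simulation changed only well-counted genes and gave every gene the same coefficient of variation (0.16). It therefore does not cover genes with few counts or a wider spread. Gene models came from GENCODE and RefSeq.

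The members and lists were chosen with earlier results of these data known. Named genes were all members, every other BCL2 family gene tested, at most 3 called genes of each other list with the smallest adjusted p, the 3 genes most like each of 3 members, and at most 2 epithelial markers. PTPRC, LYZ, MIR4435-2HG, ABALON, BCL2L2-PABPN1, SERPINB5, SCUBE1 and the nearest genes of members were named in addition, after their values were seen. Results that need some further genes are left out.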

Additional observations from a re-analysis of the deposited data

How the results depend on the processing

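Of 420 comparisons of a member's log2 fold change with an alternative, 409 kept direction and side of the threshold. Those that did not are given in the report or concern values near 0 that were never called: MCL1 in S2-020 against S2-007 (-0.01 with at least 10 counts in every library, -0.04 to 0.05 leaving out 1 library), BMF there (-0.31 to 0.08, and 0.01 without S2-007 replicate 2) and BCL2L1 in S2-028 against S2-020 (-0.02 to 0.09). Outside the members, values turned sign when 1 library was left out for BOK (-0.08 to 0.04, -0.05 to 0.02 and -0.07 to 0.04 in S2-028 against S2-007, S2-020 against S2-007 and S2-028 against S2-020), VDAC3 (-0.04 to 0.03, S2-028 against S2-007), BNIP3 (-0.02 to 0.07, S2-020 against S2-007) and BNIP3L (-0.03 to 0.07, S2-028 against S2-020). Under glmTreat the number of DEGs was 2977 (1674 higher, 1303 lower) in S2-028 against S2-007, 3639 (1628, 2011) in S2-020 against S2-007 and 3638 (2005, 1633) in S2-028 against S2-020, by its stricter null. The members called lower became 0 and 1 in the first and the last, and the pathway genes called became 4 lower in the first and 6 higher and 5 lower in the last. Of the list counts, glmTreat also left 0 apoptosome and caspase genes, 1 IAP gene and 0 death receptor genes called in S2-028 against S2-007, 1 apoptosome or caspase gene and 1 VDAC or partner gene in S2-020 against S2-007, and 2 other family genes, 3 death receptor genes, 1 VDAC or partner gene and 1 regulator in S2-028 against S2-020. Leaving out 1 library gave 1 to 2 members lower in S2-028 against S2-007 (main 1). With the nearest 20 genes the medians around BID were 0.51 and 0.92 (S2-028 against S2-007, S2-028 against S2-020), around BCL2L11 -0.16 (S2-020 against S2-007) and around BIK -0.37 and 0.10 (S2-020 against S2-007, S2-028 against S2-020). With the longest coding length, BCL2L1 held 68.7%, 66.0% and 72.7% of the pro-survival level in S2-007, in S2-020 and in S2-028, BAX 36.6%, 60.5% and 53.8% of the effectors, and BID 38.8% and 56.6% of the BH3-only level in S2-020 and S2-028. Replicate numbers did not pair the libraries (correlation of deviations -0.047 to 0.136), and the fit with a replicate block gave 4865, 5650 and 5716 DEGs and changed no member's call. Depth limits BMF, and BCL2A1 and BCL2L10 could not be tested.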
